A study of Mus musculus with 6 samples.

Results

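The genes described here are 34 genes of microglia, complement and antigen presentation, followed in whole retinas of control and *Yap* cKO mice. They were taken from a list of gene symbols and looked up in a table of 55421 genes, where each was found once. They comprise 19 genes of microglia and macrophages, 8 genes of complement and 7 genes of the major histocompatibility complex (MHC). Microglia are the resident macrophages of the retina. They survey synapses and debris through purinergic and chemokine receptors, and after injury they are known to lower their surveillance genes and to raise genes of phagocytosis, complement and antigen presentation. Complement is a cascade in which C1q, bound to a surface, leads to the cleavage of C4 and C3, whose fragments tag that surface for uptake. MHC class I presents peptides from inside almost every cell, whereas class II is used by a few specialised immune cells and loads its peptides with the help of the invariant chain, encoded by *Cd74*.

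Control mice were Yapfl/fl (YR612, YR613 and YR615), whereas *Yap* cKO mice were Yapfl/fl;RaxCreERT2 (animals YR711, YR713 and YR714), with 3 retinas per genotype. Both genotypes received 4-hydroxytamoxifen on postnatal days 10 and 14 and were analysed at 2 months of age. The controls therefore carry the floxed alleles and the drug but no Cre. The *Rax* promoter directs the recombinase to Müller glia and to the ciliary epithelium, and microglia are not among the cells it is known to target. Stranded, poly(A)-selected RNA was sequenced, and between 24261799 and 35067068 fragments were assigned to genes per retina. *Yap1* itself had 9.48, 9.52 and 9.83 TPM (transcripts scaled to gene length and depth) in controls and 3.99, 3.76 and 3.94 TPM in *Yap* cKO retinas, for a log2 fold change of -1.36 (SE 0.093) and an adjusted p of 0.000282 by the quasi-likelihood test of edgeR. *Xist* and *Ddx3y* levels marked YR612, YR613 and YR711 as male and YR615, YR713 and YR714 as female, so that each genotype holds both sexes in unequal numbers.

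None of the tested genes passed the criteria for differential expression between control and *Yap* cKO retinas. After a filter on low counts, 31 of the 34 genes were tested. By edgeR's quasi-likelihood test, with p-values adjusted over all 16575 genes tested, 0 of the 31 met the criteria used (adjusted p no higher than 0.05, at least a 1.5-fold change and 5 TPM or more in 1 group), against 0.796% of all genes (0.211% higher and 0.585% lower in *Yap* cKO retinas). On the adjusted p alone 0 of the 31 passed, against 1.49% of all genes (0.501% higher, 0.989% lower). Likewise 0 passed with DESeq2, with limma-voom or with edgeR's likelihood ratio test, where 5.38%, 1.64% and 6.18% of all genes passed. At an unadjusted p under 0.05 there were 5 of the 31 by the quasi-likelihood test, a share of 16.1% where all genes gave 21.4% (9.42% lower in *Yap* cKO retinas), and 4, 5 and 5 with DESeq2, limma-voom and the likelihood ratio test, where 3157, 3654 and 3420 of the 16575 genes had such a p. The median log2 fold change was -0.01 over the 31 genes and 0.00 over all genes tested.

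The size of change that these retinas could hide was limited for most of the genes. The 95% interval of the fold change, not corrected for the number of genes, stayed within 2-fold in either direction for 27 of the 31 genes, against 87.0% of all genes. The 4 genes with wider intervals were the macrophage receptor *Mrc1*, the complement gene *C4b* and the class II genes *Cd74* and *H2-Aa*. In whole tissue, fewer cells of a type and less RNA per cell cannot be told apart.

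**Figure D1:**
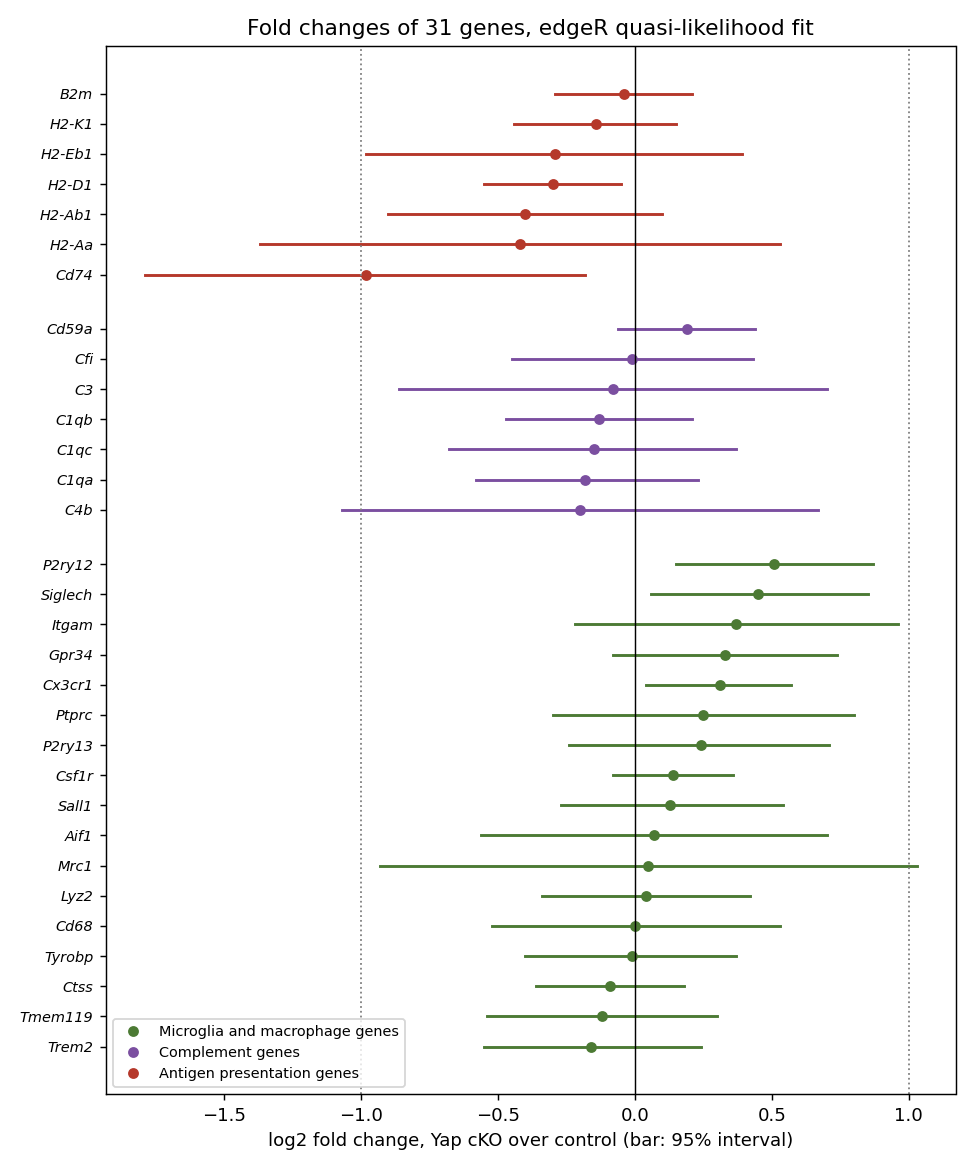
Log2 fold change of *Yap* cKO over control retinas for the 31 tested genes (points), with 95% intervals (bars) from the edgeR quasi-likelihood fit of 3 against 3 retinas. Dotted lines mark 2-fold changes, which the bars of *Mrc1*, *C4b*, *Cd74* and *H2-Aa* cross, and 13 of 17 microglia genes lie above 0 while all 7 antigen presentation genes lie below it, of which *B2m* was at 0.12 with the length correction and at 0.02 and 0.06 without YR714 and control YR615.

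Levels on the TPM scale, which takes gene length into account, spanned the range from ubiquitous to barely detected. The class I light chain *B2m* had the highest mean level over the 6 retinas (141 TPM), followed by *Cd59a* (110 TPM), which encodes an inhibitor of the terminal complement pore. The lysosomal protease gene *Ctss*, at 62.0 TPM, was the highest of the microglia genes. The signalling adaptor *Tyrobp* had 20.3 TPM and the receptor *Csf1r*, which binds the survival factor CSF1, had 11.8 TPM. The class II genes *Cd74*, *H2-Ab1*, *H2-Eb1* and *H2-Aa* had means between 1.15 and 4.81 TPM. At the lower end of the tested genes stood *Itgam* (0.766 TPM), *Mrc1* (0.498 TPM) and *Ptprc* (0.169 TPM). The TPM of *Ptprc* rests on an exonic length of 18313 bases, against 5024 for *Itgam*, which lowers it for a given count. Of the exonic bases of *Itgam* and *Cfb*, 68.7% and 79.5% lie in another annotated gene on the same strand (*Gm49368* and *Gm20547*). Fragments that fall on both genes are not counted under the default setting of the counting tool. The part of such uncounted fragments in the low levels of *Itgam* and *Cfb* was not tested. Both of those overlapping genes had 0 counts in all 6 retinas.

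**Figure D2:**
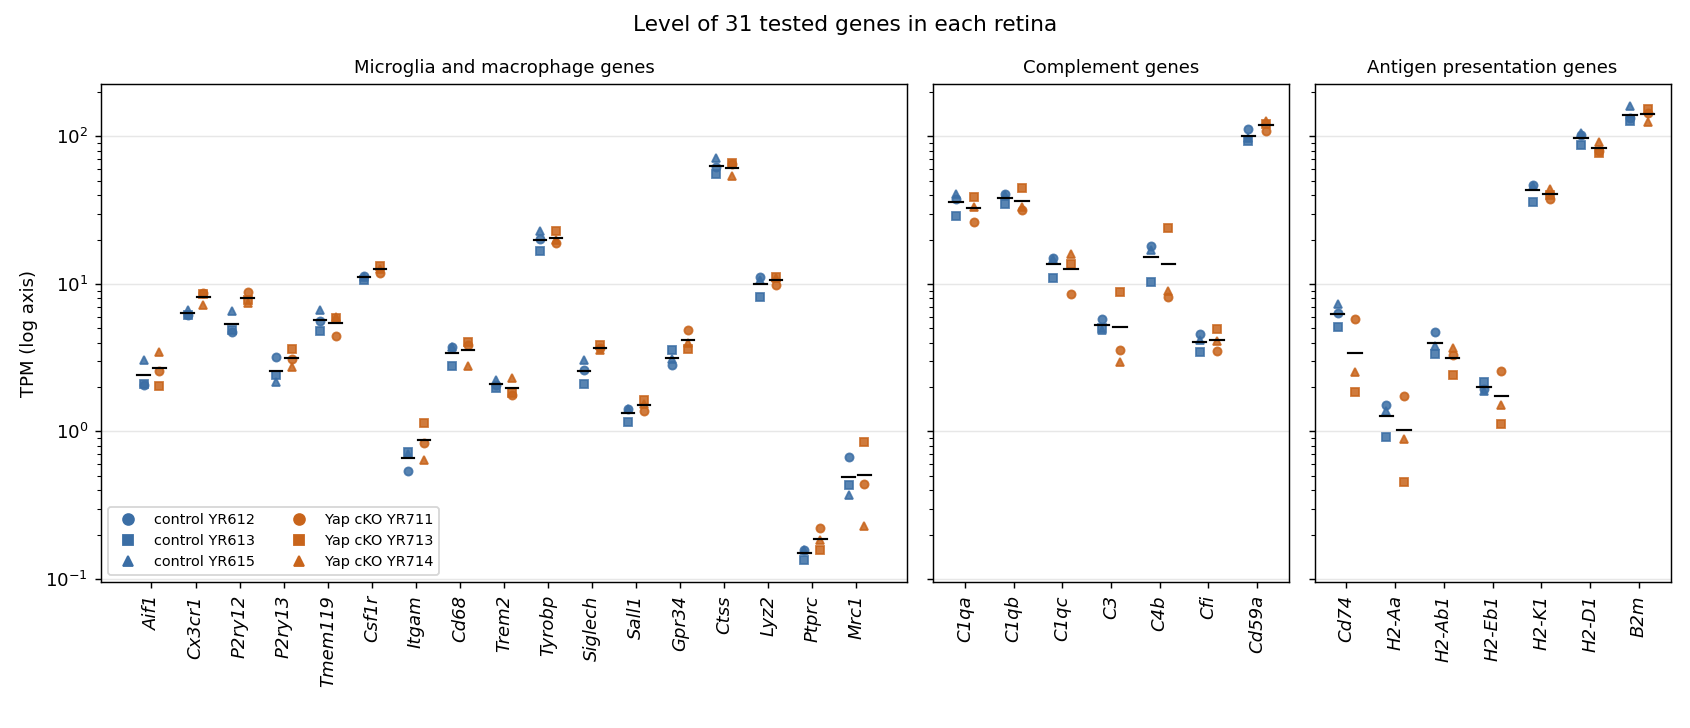
TPM (log axis) of the 31 tested genes in each of 3 control retinas (blue) and 3 *Yap* cKO retinas (orange), with a black line at each group mean. The groups are separated for *Cx3cr1*, *P2ry12*, *Siglech*, *Gpr34* and *Csf1r*, and the *Yap* cKO retinas spread widely for *C3*, *C4b* and the class II genes *Cd74*, *H2-Aa* and *H2-Eb1*.

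The genes *P2ry12*, *Cx3cr1*, *Siglech*, *Gpr34* and *Csf1r* had higher values in every *Yap* cKO retina than in any control, and none of them passed the adjusted threshold. *P2ry12*, the ADP receptor that guides microglial processes (chromosome 3 of GRCm38, 59216272 to 59262871, minus strand), had 4.70, 4.87 and 6.54 TPM in the controls (YR612, YR613, YR615, the order kept for every gene) and 8.79, 7.76 and 7.47 TPM in the *Yap* cKO retinas (YR711, YR713, YR714). Each of the latter lay above all 3 controls, and the highest control was the female YR615. Its log2 fold change was 0.51 (SE 0.16, adjusted p = 0.130 from the quasi-likelihood test fitted across all genes), with a 95% interval of the fold from 1.11 to 1.83. Under the alternatives tried, its adjusted p lay between 0.0566 and 0.386.

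*Cx3cr1*, the receptor of the neuronal chemokine fractalkine (chromosome 9, 119901616 to 120069879, minus strand), had 6.19, 6.15 and 6.70 TPM in controls and 8.72, 8.60 and 7.21 TPM in *Yap* cKO retinas. The groups did not overlap, and YR714 lay nearest to the controls. Its log2 fold change was 0.31 (SE 0.12, adjusted p = 0.185, quasi-likelihood test), with an interval of the fold from 1.03 to 1.48.

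*Siglech*, a sialic acid receptor used as a marker of microglia, had 2.60, 2.11 and 3.04 TPM in controls and 3.70, 3.84 and 3.55 TPM in *Yap* cKO retinas. Here too the groups were apart, with a log2 fold change of 0.45 (SE 0.18, adjusted p = 0.185, quasi-likelihood test). *Gpr34*, a lysophosphatidylserine receptor, had 2.83, 3.56 and 3.11 TPM in controls and 4.87, 3.63 and 3.99 TPM in *Yap* cKO retinas. The gap between its groups, from 3.56 to 3.63 TPM, was small beside the spread within them. *Csf1r* had 11.3, 10.7 and 11.2 TPM in controls and 11.8, 13.3 and 12.7 TPM in *Yap* cKO retinas, for a log2 fold change of 0.14 with an adjusted p of 0.436 by the quasi-likelihood test. In all, 5 of the 31 genes (16.1%) had groups that did not overlap, each time with higher values in *Yap* cKO retinas. Of all genes, 24.3% had groups that did not overlap, 15.2% with higher values in *Yap* cKO retinas and 9.04% with lower ones, so that the share with higher values was near the background.

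For the other genes used as markers of resting microglia the groups overlapped. *Tmem119*, a membrane protein gene used as a microglia marker, had 5.57, 4.79 and 6.69 TPM in controls and 4.46, 5.86 and 5.94 TPM in *Yap* cKO retinas, for a log2 fold change of -0.12. *Sall1*, a transcription factor of microglial identity, gave 0.13 on the same scale. *P2ry13*, the ADP receptor gene next to *P2ry12*, gave 0.24 with overlapping groups. *Trem2*, a lipid receptor of microglia that signals through the product of *Tyrobp*, gave -0.16, and *Tyrobp* gave -0.01.

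None of the genes that mark macrophage activity passed the test. *Aif1*, which encodes the IBA1 antigen, had between 2.08 and 3.06 TPM in controls and between 2.03 and 3.44 TPM in *Yap* cKO retinas. *Cd68*, a lysosomal membrane protein gene of phagocytes, had a log2 fold change of 0.00 (SE 0.23) with an interval of the fold from 0.70 to 1.44. *Ctss* ranged from 55.5 to 70.9 TPM in controls and from 53.6 to 65.6 TPM in *Yap* cKO retinas. *Lyz2*, the lysozyme gene of myeloid cells, gave 0.04 (SE 0.17), but 23.3% of its 40-base words also occur in *Lyz1*. The integrin gene *Itgam* gave 0.37 (SE 0.26), on between 18 and 50 counts per retina. The pan-leukocyte phosphatase gene *Ptprc* gave 0.25 (SE 0.25), on between 17 and 26 counts. *Mrc1*, a mannose receptor gene of border-associated macrophages, had 0.666, 0.435 and 0.368 TPM in controls and 0.442, 0.848 and 0.230 TPM in *Yap* cKO retinas. Its log2 fold change was 0.05 and became -0.59 without YR713.

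As a group, 13 of the 17 tested microglia genes had a positive and 4 a negative log2 fold change, with a median of 0.13. The median was 0.17 when each retina was corrected for gene length and 0.09 with sex as a covariate, and it lay between 0.03 and 0.20 when single retinas were left out. The genes' summed level ranged from 124 to 156 TPM in controls and from 139 to 158 TPM in *Yap* cKO retinas. The chemokine genes *Ccl2* and *Cxcl10*, which recruit monocytes and T cells, did not reach the count filter. *Ccl2* had 0, 0 and 1 counts in controls and 3, 3 and 0 counts in *Yap* cKO retinas. *Cxcl10* had 2, 1 and 3 counts in controls and 7, 5 and 4 counts in *Yap* cKO retinas, and neither gene was tested.

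None of the 7 tested complement genes passed the test, and *C3* and *C4b* differed widely among the *Yap* cKO retinas. The 3 genes of C1q, the recognition molecule that microglia produce, lie side by side on chromosome 4 of GRCm38 (136880129 to 136898803) and had log2 fold changes of -0.18 (*C1qa*), -0.13 (*C1qb*) and -0.15 (*C1qc*). *C1qa* had 37.5, 29.0 and 40.7 TPM in controls and 26.3, 39.1 and 33.1 TPM in *Yap* cKO retinas. *C1qb* had 40.7, 34.6 and 39.8 TPM in controls and 31.7, 44.5 and 33.4 TPM in *Yap* cKO retinas. *C1qc* had 13.6 ± 2.27 TPM (SD, n = 3) in controls and 8.51, 13.6 and 15.9 TPM in *Yap* cKO retinas. For all of them YR711 was the lowest retina, and the groups overlapped. With the correction for gene length their median log2 fold change was -0.01 in place of -0.15.

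*C3*, the central component that all complement pathways cleave (chromosome 17, 57203970 to 57228136, minus strand), had 5.81, 5.02 and 4.88 TPM in controls and 3.56, 8.80 and 2.96 TPM in *Yap* cKO retinas. The controls were close together, whereas YR713 lay above every control and YR711 and YR714 lay below every control. The log2 fold change was -0.08 (SE 0.35, adjusted p = 0.912, quasi-likelihood test), and it was -0.74 without YR713 (adjusted p = 0.173) and 0.19 without YR714 (adjusted p = 0.699).

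*C4b*, the component cleaved ahead of C3 in the classical pathway (chromosome 17, 34728380 to 34743882, minus strand), also had its highest value in YR713. It had 18.2, 10.3 and 17.1 TPM in controls and 8.14, 24.1 and 8.99 TPM in *Yap* cKO retinas, so that YR713 again stood above all controls and the other *Yap* cKO retinas below them. The log2 fold change was -0.20 (SE 0.39, adjusted p = 0.782, quasi-likelihood test) and -0.89 without YR713 (adjusted p = 0.271). Of the 40-base words of *C4b*, 41.3% also occur in its neighbour *C4a*, so fragments lying wholly in those stretches map to both genes and are left out of the counts by default.

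The regulators of the cascade were steadier. *Cfi*, the protease that inactivates cleaved C3 and C4, had between 3.48 and 4.57 TPM in controls and between 3.53 and 4.97 TPM in *Yap* cKO retinas, for a log2 fold change of -0.01. *Cd59a* had 112, 92.6 and 97.3 TPM in controls and 108, 122 and 128 TPM in *Yap* cKO retinas, for a log2 fold change of 0.19 (SE 0.11, adjusted p = 0.336, quasi-likelihood test). It was the only one of the 7 tested complement genes with a positive value. *Cfb*, a protease of the alternative pathway, had 1 or 2 counts in every retina and was not tested. The median over the 7 genes was -0.13, and it was -0.01 with the length correction, -0.29 without YR713, 0.06 without YR711 and 0.00 without YR714.

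Some markers of tissue next to the retina were also higher in YR713 than in the other *Yap* cKO retinas, and their part in the *C3* and *C4b* values was not tested. *Optc*, an extracellular matrix gene of the ciliary epithelium, had 2.86, 8.39 and 2.44 TPM in YR711, YR713 and YR714 and between 45.6 and 50.2 TPM in controls. *Pmel*, a melanosome gene of pigment cells, had 4.30, 11.5 and 3.96 TPM against 19.7 to 26.3 TPM in controls. The summed level of 8 fibroblast genes was 10.3, 13.2 and 9.43 TPM against 22.3 to 23.4 TPM in controls. Of these 8 genes 5 were tested, with a median log2 fold change of -0.05. The summed level of 12 ciliary epithelium genes was 390, 472 and 430 TPM against 425 to 434 TPM in controls, with YR713 the highest of the 6 retinas. Of the 11 tested genes of that list, however, 10 had a negative log2 fold change, with a median of -0.43 over the 11. The only positive one was *Aqp1* (0.29), which had the highest level. The summed level of 10 pigment epithelium genes was 958, 1080 and 1370 TPM against 1520 to 1600 TPM in controls, with YR714 the highest of the *Yap* cKO retinas. That list includes *Rlbp1*, which is also on the list of Müller glia markers, so the sum is no reading of pigment epithelium alone.

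**Figure D3:**
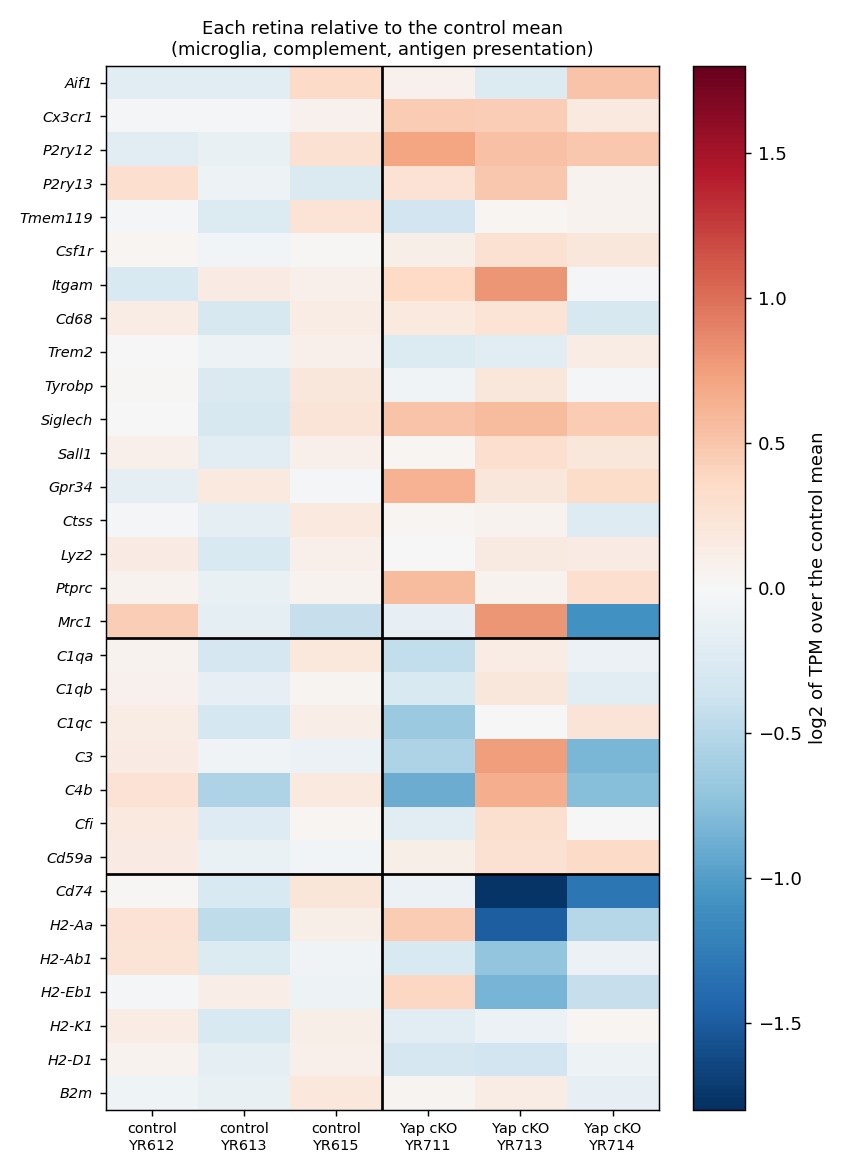
Log2 of the TPM of each retina over the control mean (colour scale, red higher and blue lower) for the 31 tested genes in rows and the 6 retinas in columns, with black lines between the 3 gene groups and between the genotypes. *C3* and *C4b* are 0.75 and 0.66 above the control mean in YR713, where *Cd74* and *H2-Aa* are at -1.76 and -1.48.

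For the MHC class II genes YR713 was the lowest of the *Yap* cKO retinas instead of the highest. The class II genes *H2-Aa*, *H2-Ab1* and *H2-Eb1* lie within chromosome 17, 34257689 to 34316674 of GRCm38. Their promoters are known for a conserved block whose Y box holds an inverted CCAAT motif and which is read only in the presence of the coactivator CIITA. The 250 bases upstream of the RefSeq start are printed for *H2-Aa* and *H2-Eb1*, because *Yap* cKO YR711 was the highest and YR713 the lowest of the 6 retinas for both genes and both carry the Y box letters CTGATTGG. Sequences are from RefSeq on GRCm38.p6, 5′ to 3′ on the strand of the gene. *H2-Aa* is chr17:34287824-34288073 on the minus strand and *H2-Eb1* is chr17:34305617-34305866 on the plus strand. Capitals mark the Y box and, in *H2-Eb1*, a further CCAAT.
H2-Aa: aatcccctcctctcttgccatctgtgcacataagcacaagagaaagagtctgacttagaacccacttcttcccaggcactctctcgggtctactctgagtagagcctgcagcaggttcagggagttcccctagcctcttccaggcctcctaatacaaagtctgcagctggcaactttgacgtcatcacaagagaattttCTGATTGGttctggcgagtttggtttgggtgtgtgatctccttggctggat
H2-Eb1: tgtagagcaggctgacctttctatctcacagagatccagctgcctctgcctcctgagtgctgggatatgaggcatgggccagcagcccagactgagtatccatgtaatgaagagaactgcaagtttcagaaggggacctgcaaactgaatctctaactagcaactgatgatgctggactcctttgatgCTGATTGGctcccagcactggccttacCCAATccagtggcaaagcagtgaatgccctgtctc

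The Y box letters begin 51 bases before the start of *H2-Aa* and 62 bases before that of *H2-Eb1*. A search of both strands found these letters in 3.83% of 32851 RefSeq promoter windows of the same length. Of the 34 genes, 23 had at least 1 window and some had several. For these genes a match in any window was counted once per gene, whereas the shares over all promoters are per window, so the counts and the shares are not in the same unit. The Y box letters were found for 4 of the 23 genes (*Cxcl10*, *H2-Aa*, *H2-Eb1* and *H2-D1*). The interferon-stimulated response element, as a pair of GAAA separated by any 2 bases, in 2.98% of all windows, were found in *Aif1*, *Ctss*, *Cxcl10*, *Cd59a* and *B2m*. GAGGAA, the core bound by the myeloid factor PU.1, was found for 11 of the 23 genes and in 23.3% of all windows. CCAAT, part of the Y box when read on the other strand, was found for 12 of the 23 genes and in 33.8% of all windows, and TATAAA for 4 of the 23 genes and in 12.4% of all windows. A match of letters describes the window and shows no binding.

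*Cd74* had 6.32, 5.13 and 7.28 TPM in controls and 5.78, 1.85 and 2.53 TPM in *Yap* cKO retinas. YR711 lay within the range of the controls, whereas YR713 and YR714 lay below all of them. These values rest on 59 to 94 counts in controls and 62, 27 and 29 counts in *Yap* cKO retinas. Its log2 fold change was -0.98 (SE 0.36, adjusted p = 0.168 from the quasi-likelihood test fitted across all genes), with a 95% interval of the fold from 0.29 to 0.88. It met the criteria without YR711, at -1.58 with an adjusted p of 0.0307 by the same test, and when no filter on low counts was applied, at -0.99 with an adjusted p of 0.000317. With no filter, 6.19% of all genes passed the adjusted threshold, against 1.49% in the reported fit. The SE of *Cd74* was 0.22 there in place of 0.36. That of *C4b*, which spread widely among the *Yap* cKO retinas, was 0.12 in place of 0.39. The log2 fold change of *Cd74* was -0.66 without YR713, and over the alternatives its adjusted p lay between 0.000317 and 0.467.

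*H2-Aa*, the alpha chain gene of class II, had 1.52, 0.922 and 1.37 TPM in controls and 1.73, 0.454 and 0.886 TPM in *Yap* cKO retinas. The highest and the lowest of the 6 retinas were thus both *Yap* cKO. *H2-Eb1*, a beta chain gene, had 1.95, 2.18 and 1.87 TPM in controls and 2.58, 1.12 and 1.51 TPM in *Yap* cKO retinas, with the same retinas at the extremes. *H2-Ab1*, the partner chain of *H2-Aa*, had 4.72, 3.35 and 3.80 TPM in controls and 3.29, 2.42 and 3.70 TPM in *Yap* cKO retinas. YR713 was the lowest retina for all 4 class II genes. Their log2 fold changes were -0.42 (SE 0.42) for *H2-Aa*, -0.29 (SE 0.31) for *H2-Eb1* and -0.40 (SE 0.22) for *H2-Ab1*. The median of the 4 was -0.41, and it was -0.13 without YR713 and -0.84 without YR711. Their summed level was 14.5, 11.6 and 14.3 TPM in controls and 13.4, 5.84 and 8.62 TPM in *Yap* cKO retinas.

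Class I genes were expressed at higher levels and varied less. *H2-D1*, a heavy chain gene, had 102, 87.4 and 105 TPM in controls and 79.7, 77.1 and 92.1 TPM in *Yap* cKO retinas. The groups overlapped through control YR613 and *Yap* cKO YR714. Its log2 fold change was -0.30 (SE 0.11, adjusted p = 0.177, quasi-likelihood test). The adjusted p was 0.0450 without control YR613 and 0.0440 with no filter on low counts, where 8.84% and 6.19% of all genes passed. *H2-K1*, the other classical heavy chain gene, had 47.2, 35.9 and 46.3 TPM in controls and 37.5, 40.1 and 44.3 TPM in *Yap* cKO retinas, for a log2 fold change of -0.14. The light chain gene *B2m* had 133, 127 and 160 TPM in controls and 145, 154 and 126 TPM in *Yap* cKO retinas, for a log2 fold change of -0.04 (SE 0.11). Heavy chain genes are alike in sequence, and 19.1% of the 40-base words of *H2-D1* and 14.8% of those of *H2-K1* occur in other genes. All 7 antigen presentation genes had negative log2 fold changes, with a median of -0.30, and this was -0.21 with the length correction, where *B2m* turned to 0.12. The median was -0.13 without YR713 and -0.44 without YR711.

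The sexes were unequal between the genotypes. Values within each sex are given for the class II genes, *P2ry12*, *Cx3cr1*, *Siglech*, *C3* and *C4b*. Between males (2 control, 1 *Yap* cKO) the log2 ratio of *Yap* cKO over control mean TPM was 0.01 for *Cd74*, 0.51 for *H2-Aa* and 0.32 for *H2-Eb1*. Between females (1 control, 2 *Yap* cKO) it was -1.74, -1.03 and -0.51 for the same genes. The remaining class II gene, *H2-Ab1*, had -0.29 in males and -0.31 in females. With a single retina on one side of each, these ratios allow no test. *P2ry12*, *Cx3cr1* and *Siglech* had ratios of 0.88, 0.50 and 0.65 in males and 0.22, 0.24 and 0.28 in females. The groups of these genes did not overlap, so a positive ratio within each sex was fixed in advance and adds no support. *C3* gave -0.60 in males and 0.27 in females, and *C4b* gave -0.81 and -0.05. With sex as a covariate 0 of the 31 genes passed the adjusted threshold, against 0.911% of all genes, and 4 had an unadjusted p under 0.05, against 22.8% of all genes.

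Markers of blood leukocytes were sparse in all retinas, whereas those of red blood cells and border macrophages were detected. Of 12 blood leukocyte genes, 7 had at most 3 counts in every retina, and 1 passed the count filter (*Flt3*, log2 fold change -0.10, between 1.96 and 2.91 TPM in all retinas). The leukocyte list summed to 4.17 to 7.70 TPM in controls and 3.11 to 3.99 TPM in *Yap* cKO retinas. The T cell genes *Cd3e* and *Cd3g* were at 0 counts in 5 of the 6 retinas. *Ccr2*, the monocyte receptor for the product of *Ccl2*, had at most 3 counts. Of 7 border macrophage genes 2 were tested, and the sum of the list, mostly *Lyve1*, was 19.5 to 20.1 TPM in controls and 18.6 to 22.9 TPM in *Yap* cKO retinas. Genes of red blood cells summed to 44.8 to 79.8 TPM in controls and to 32.5 to 49.3 TPM in *Yap* cKO retinas, led by *Hbb-bs* (log2 fold change -0.69, adjusted p = 0.136, quasi-likelihood test). The part of blood cells in the class II values was not tested.

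The wider pathways were read from 145 further genes in 7 lists, of which 120 were tested. Among these, 2 were differentially expressed (0.796% of all genes), 4 passed the adjusted p of 0.05 (1.49% of all genes) and 35, or 29.2%, had an unadjusted p under 0.05 (21.4% of all genes). Both of the differentially expressed genes were lower in *Yap* cKO retinas. *Serping1*, which encodes the inhibitor of the C1 proteases, had 27.0, 20.4 and 28.4 TPM in controls and 7.68, 12.3 and 8.37 TPM in *Yap* cKO retinas, for a log2 fold change of -1.47 (SE 0.20, adjusted p = 0.00966, quasi-likelihood test). The groups were far apart, and YR713 was the highest of the *Yap* cKO retinas. The adjusted p of *Serping1* was 0.0607 without control YR612 and 0.0641 without control YR615.

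*Lgals3*, the galectin-3 gene, which activated microglia and several other cell types express, had 6.28, 4.01 and 4.90 TPM in controls and 1.01, 1.48 and 1.58 TPM in *Yap* cKO retinas. It fell by 1.94 on the log2 scale (SE 0.27, adjusted p = 0.00999, quasi-likelihood test), and its adjusted p was 0.0592 without control YR615. Some markers of fibroblasts, pigment cells and ciliary epithelium also fell. *Ogn* and *Col1a2*, matrix genes of fibroblasts, had log2 fold changes of -2.62 and -2.16 (adjusted p = 0.00123 and 0.00236, quasi-likelihood test), *Pmel* had -1.89 (adjusted p = 0.0347) and *Optc* had -3.41 (adjusted p = 0.00243). Over the 5 tested fibroblast genes, however, the median log2 fold change was -0.05 and the highest was 0.08. Lens genes summed to 2.05 to 10.8 TPM and to 0.939 to 3.02 TPM. The part of such cells in the *Serping1* and *Lgals3* values was not tested.

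**Figure D4:**
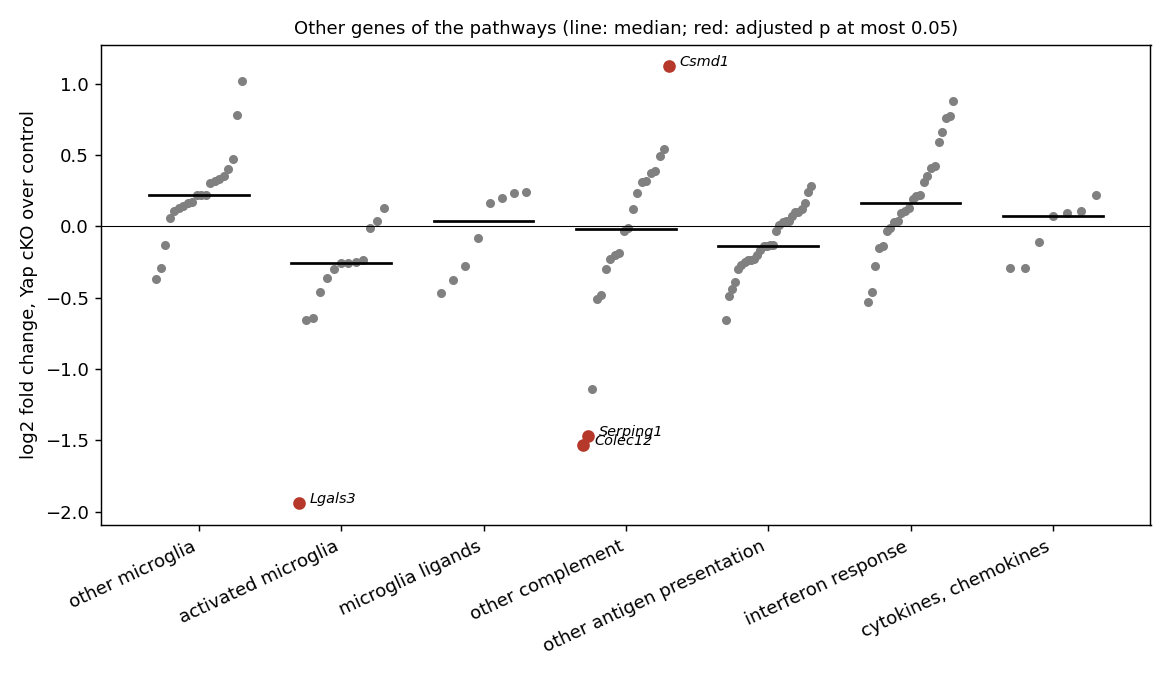
Log2 fold change of *Yap* cKO over control retinas (vertical axis) for the 120 tested genes of 7 further lists (horizontal axis), sorted within each list, with a black line at the list's median. Red points passed an adjusted p of 0.05, which were *Lgals3*, *Serping1* and *Colec12* among lower genes and *Csmd1* among higher ones.

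Among 20 tested genes of 27 in the complement list, 3 passed the adjusted threshold, which 1.49% of all genes passed. Beside *Serping1* these were *Colec12*, a scavenger receptor of the collectin family, with a log2 fold change of -1.53 (adjusted p = 0.00475, quasi-likelihood test), and *Csmd1*, a membrane protein with complement control domains, with 1.12 (adjusted p = 0.0318). Both stayed under 5 TPM in both groups and so did not meet the level criterion. With the length correction the log2 fold change of *Csmd1* was 0.81 (adjusted p = 0.0143), and without YR711, YR713, control YR612 or control YR615 the adjusted p lay between 0.0589 and 0.164. *C1ra*, a protease of the C1 complex, had -1.14 (adjusted p = 0.0986), on 8 to 34 counts per retina. *Clu*, a fluid-phase inhibitor of the complement pore, had -0.30 (adjusted p = 0.132). The list's median was -0.02.

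Further microglia genes gave no adjusted call in 20 tested. Their median log2 fold change was 0.22, with 17 positive and 3 negative, and it was 0.28 with the length correction and 0.08 with sex as a covariate. *Fcgr3*, an Fc receptor gene, had 2.71, 1.77 and 3.52 TPM in controls and 4.42, 5.16 and 4.80 TPM in *Yap* cKO retinas, for a log2 fold change of 0.78 (adjusted p = 0.133, quasi-likelihood test). Its groups did not overlap, as was the case for 24.3% of all genes.

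Genes of activated microglia had a median of -0.26 over 13 tested genes of 15, with 2 positive and 11 negative values. By the quasi-likelihood test 7 (53.8%) had an unadjusted p under 0.05, all lower in *Yap* cKO retinas, where all genes gave 9.42% lower. *Lgals3* was the only adjusted call among them. Next came *Ctsl*, a lysosomal protease gene, with -0.26 (adjusted p = 0.123, quasi-likelihood test), and *Axl*, a receptor for apoptotic cells, with -0.30 (adjusted p = 0.139). *Apoe*, the lipid carrier, had -0.46 (adjusted p = 0.164) at 1070 to 1430 TPM in controls and 784 to 1160 TPM in *Yap* cKO retinas. *Apoe* is also on the list of Müller glia markers, so its level is no reading of microglia alone. The protease genes *Ctsd* and *Ctsb* of the list had means of 507 and 426 TPM. *Ctss*, the highest of the 19 microglia genes, had 62.0 TPM. The part of other cell types in the values of this list was not tested. *Cst7* and *Itgax* were too low to be tested.

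Ligands that other retinal cells offer to microglia had values in both directions, with 0 adjusted calls in 8 tested by the quasi-likelihood test and 4 at an unadjusted p under 0.05. *Csf1*, a ligand of the receptor encoded by *Csf1r*, had 5.51, 5.08 and 4.90 TPM in controls and 4.18, 3.66 and 3.85 TPM in *Yap* cKO retinas, for a log2 fold change of -0.47 (SE 0.13, adjusted p = 0.0993). *Cx3cl1*, the fractalkine gene, had 126, 125 and 133 TPM in controls and 154, 157 and 156 TPM in *Yap* cKO retinas, for a log2 fold change of 0.23 (SE 0.072, adjusted p = 0.134). The groups were separate for both genes, as they were for 24.3% of all genes. Neither passed the adjusted threshold.

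In the antigen presentation list, 28 of 33 genes were tested, 0 passed the adjusted threshold by the quasi-likelihood test, 7 had an unadjusted p under 0.05 and the median was -0.14. The nonclassical class I gene *H2-Q4* had -0.44 (adjusted p = 0.110) and *Ifi30*, a thiol reductase of the class II pathway, had -0.49 (adjusted p = 0.156). *Ciita*, the class II coactivator, had at most 7 counts in any retina and was not tested. Interferon response genes, all 24 tested, gave 0 adjusted calls, 6 with an unadjusted p under 0.05 and a median of 0.16. The smallest adjusted p among them were those of *Gbp3*, an interferon-induced GTPase gene, with 0.88 (adjusted p = 0.0674, quasi-likelihood test), and of *Irf1*, an interferon-induced transcription factor, with -0.53 (adjusted p = 0.0735). Of 18 cytokine and chemokine genes 7 were tested, with 0 adjusted calls, 1 (14.3%) at an unadjusted p under 0.05 and a median of 0.07. *Nfkbia*, an inhibitor of NF-kappaB, and *Il18* both had -0.29 (adjusted p = 0.176 and 0.274, quasi-likelihood test). *Il1b*, *Tnf*, *Ccl3*, *Ccl4* and *Ccl5* did not reach the count filter, and *Il6* had 0 counts in all 6 retinas.

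Marker lists of other cell types gave the following values beside these genes. Rod genes summed to 58400 to 62200 TPM in controls and to 55400 to 60000 TPM in *Yap* cKO retinas. Müller glia genes summed to 7050 to 7280 TPM and to 6220 to 6660 TPM, led by *Glul* (log2 fold change -0.21, adjusted p = 0.185, quasi-likelihood test). *Aqp1*, a water channel gene, had the highest level on the ciliary epithelium list (log2 fold change 0.29, adjusted p = 0.126, quasi-likelihood test). Endothelial genes summed to 230 to 239 TPM and to 201 to 262 TPM, led by *Kdr* (0.03). Astrocyte genes summed to 109 to 127 TPM and to 111 to 120 TPM, among which *Aldh1l1*, a folate enzyme gene of astrocytes and Müller glia, fell by 0.79 on the log2 scale (adjusted p = 0.00437, quasi-likelihood test) and *Gfap* had -0.33.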

How the data were processed

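Retinas of 3 control and 3 *Yap* cKO mice were analysed, 1 library each. The authors aligned paired-end reads to GRCm38 with STAR 2.7.3a and deposited fragment counts per gene from featureCounts 1.6.2 (strand setting 2), with no normalization. The file header names annotation release 98, whereas the methods name another release. Total counts ranged from 24261799 to 35067068, and counting error enters through the negative binomial model (common dispersion 0.0126). TPM was derived from these counts with the exonic length of each gene.

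Tests used R 4.3.3 and edgeR 4.0.16: filterByExpr by group, TMM (factors 0.986 to 1.024), glmQLFit and glmQLFTest, Benjamini-Hochberg adjustment over 16575 genes, and the study's criteria (adjusted p no higher than 0.05, fold 1.5 or more, mean TPM 5 or more in 1 group). Intervals of 95% use the moderated degrees of freedom. Alternatives were library size alone, median-of-ratios factors, DESeq2 1.42.0, the likelihood ratio test, limma-voom (limma 3.58.1), other filters and criteria, loess offsets for gene length (span 0.3), sex as a covariate, and each retina left out. The scripts were tested on simulated counts. The members and lists were chosen with earlier results of these data known. Of the further lists, genes past an adjusted p of 0.05 and the 2 with the smallest p otherwise are named. Of marker lists, those past it and the gene with the highest TPM are named. Some genes that these rules name are not reported here. *Apoe*, *Ctsd*, *Ctsb*, *Clu*, *Ciita*, *C1ra*, *Gfap*, *Ccr2*, *Cd3e*, *Cd3g*, *Cst7*, *Itgax* and the untested cytokine genes were added after their values were seen. Promoter windows came from RefSeq (GRCm38.p6), and 40-base words and exon overlaps from the GENCODE annotation of GRCm38.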

Additional observations from a re-analysis of the deposited data

How the results depend on the processing

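Over the alternatives, 461 log2 fold changes of the tested members were recomputed, of which 416 kept their direction and their side of the adjusted threshold, 41 changed sign and 4 passed the threshold. No member whose sign changed had a size above 0.25 in the reported fit. Differentially expressed genes numbered 132 in all and 2 among the further lists. They were 263 and 4 with DESeq2, 291 in all with the likelihood ratio test, 222 in all at an adjusted p of 0.1, 4 in the lists at a minimum of 1 TPM, and 369 and 5 with no filter on low counts, where 1 member (*Cd74*) was called and 2 (*Cd74* at -0.99 and *H2-D1* at -0.31) passed the adjusted p. With single retinas left out, the count over all genes lay between 37 (without control YR615) and 516 (without control YR613), with 41 without control YR612, 68 without YR713 and 446 without YR714. That of the lists lay between 0 (without control YR615) and 7 (without YR714), with 1 without control YR612. That of the members lay between 0 and 1 (*Cd74* without YR711), and members past the adjusted p between 0 and 1 (also *H2-D1* without control YR613). Without filter, *Cd68* was -0.00066, and -0.00032 at a minimum of 1 CPM in 3 retinas and -0.02 with library size alone. The length correction gave *Tyrobp* 0.15, *Ctss* 0.07, *Ptprc* -0.06, *Mrc1* -0.02, *C1qb* 0.03, *Cfi* 0.11 and *B2m* 0.12. Sex as a covariate gave *Aif1* -0.03, *Cd68* -0.0044 and *Lyz2* -0.01, and limma-voom gave *Tyrobp* 0.00011, *Mrc1* -0.08 and *Cfi* 0.0015. With single retinas left out, the values ran from -0.14 to 0.13 for *Cd68*, from -0.15 to 0.10 for *Tyrobp*, from -0.36 to 0.06 for *C1qc*, from -0.74 to 0.19 for *C3*, from -0.89 to 0.06 for *C4b*, from -0.15 to 0.10 for *Cfi*, from -0.59 to 0.37 for *Mrc1*, from -0.17 to 0.28 for *Aif1*, from -0.12 to 0.06 for *B2m*, from -0.10 to 0.14 for *Lyz2* and from -0.25 to 0.01 for *Tmem119*. The causes were not tested. No paired analysis was possible because the labels give animal codes and no replicate number that links a control to a *Yap* cKO retina. Low counts limit *Ccl2*, *Cxcl10* and *Cfb*, which had at most 7 counts in any retina. For *Cfb*, 79.5% of the exonic bases also lie in *Gm20547* on the same strand.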
